A study of Mus musculus with 4 samples.

Results

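Cystatins are small proteins that block cysteine peptidases, and the family was followed here in the SGs of mice with and without MyD88, the adaptor that carries signals from most TLRs. Its members were taken by gene symbol: Cst3, Cst6, Cst7, Cst8, Cst9, Cst10, Cst11, Cst12, Cstb and Csta, which are 10 of the 34844 genes on the array. The groups were SGs labelled Myd88-null (Myd88-/-) and wild-type SGs (Myd88+/+), with 2 arrays for each, all from C57/BL6 female mice aged 10 weeks. The labels name SMG together with SLG as the tissue, whereas the study's text names whole SMGs for its arrays and a larger number of samples per genotype, and the labels were followed. The Myd88-/- mice lack MyD88 in every cell. According to the study's methods, mice of both genotypes were offspring of heterozygous parents. The labels do not say whether an RNA sample came from a single mouse or from separate mice, so the p-values measure only the spread between these samples.

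All 10 members were on the array, with 1 probe of 1 spot each. A gene was tested where a genotype had its signal well above background on each of its arrays, which held for 5 members (Cst3, Cst6, Cst7, Cst10 and Cstb). In Myd88-/- SGs, the log2 difference from Myd88+/+ SGs was -2.53 for Cst10, -2.01 for Cst7, -0.61 for Cst3, 0.53 for Cst6 and 0.03 for Cstb. None of these differences reached the adjusted threshold of 0.05 when limma was run over 22312 genes, of which 0% passed. At an unadjusted p under 0.05, Cst3, Cst7 and Cst10 were lower and Cst6 was higher. Of all genes tested, 6.83% were lower and 9.82% higher at that limit. Cst7 passed the filter through its Myd88+/+ arrays only, so its place among the lower members depends in part on that filter.

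Type 1 cystatins, or stefins (Cstb and Csta), lack a signal peptide and stay mainly inside the cell. Type 2 cystatins (the Cst genes here) carry a signal peptide and are secreted or, as for cystatin F, delivered to lysosomes, and salivary glands are a classical source of secreted cystatins. Inhibitory members of both types insert a conserved wedge into the active-site cleft of papain-like peptidases such as the cathepsins. Several type 2 members also block legumain through a separate site.

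The part of each probe that identifies the transcript measured is given first, since each member rests on a single probe. The first 30 of the 60 bases of the probe are shown 5′ to 3′ for the 5 members tested.
Cst3: aaaggcacacactccctgacaaaattcagc
Cst10: gacagttcccttgttcctttcatctacttg
Cst7: agagagtcctttgatgacattactggagca
Cst6: ttgcaactttgagctccttgaagtcccctg
Cstb: tgatgttggtggagataaatgcgtgcactt
These probes lie in the transcripts of their genes and start at base 469 of the Cst3 transcript, base 724 of Cst10, base 795 of Cst7, base 614 of Cst6 and base 292 of Cstb. In the deposited annotation (mm9), the Cst3 probe is at chr2:148697681-148697740 on the minus strand. The Cst10 probe is at chr2:149235950-149236009 and the Cst7 probe at chr2:150404490-150404549, both on the plus strand. The Cst6 probe is at chr19:5347982-5348041 on the minus strand, and the Cstb probe at chr10:77890058-77890117 on the plus strand. Of the 10 members, 7 are neighbours on chromosome 2, where their probes span 1.81 Mb (chr2:148594465-150404549), and Csta lies on chromosome 16. The array's name Csta corresponds to the current symbol Csta1.

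The 250 bases before the transcription start of Cst3, Cst10 and Cst7 are shown because these members, all from the chromosome 2 group, had the lower signal in Myd88-/- SGs. They are RefSeq sequences of GRCm38.p6, a different build from that of the probe positions: chr2:148875513-148875762 on the minus strand for Cst3, chr2:149404999-149405248 on the plus strand for Cst10 and chr2:150570165-150570414 on the plus strand for Cst7. Each is written 5′ to 3′ on the strand of the gene, and capitals mark a GC box.
Cst3: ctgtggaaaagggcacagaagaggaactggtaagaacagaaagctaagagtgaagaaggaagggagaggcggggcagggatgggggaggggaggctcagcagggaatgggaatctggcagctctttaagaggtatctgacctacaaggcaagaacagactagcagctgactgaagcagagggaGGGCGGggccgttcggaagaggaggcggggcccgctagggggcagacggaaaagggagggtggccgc
Cst10: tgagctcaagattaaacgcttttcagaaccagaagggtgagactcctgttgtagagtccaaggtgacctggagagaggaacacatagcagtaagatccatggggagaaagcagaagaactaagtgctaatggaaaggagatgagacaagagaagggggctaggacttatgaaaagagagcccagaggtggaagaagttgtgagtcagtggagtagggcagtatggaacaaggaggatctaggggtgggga
Cst7: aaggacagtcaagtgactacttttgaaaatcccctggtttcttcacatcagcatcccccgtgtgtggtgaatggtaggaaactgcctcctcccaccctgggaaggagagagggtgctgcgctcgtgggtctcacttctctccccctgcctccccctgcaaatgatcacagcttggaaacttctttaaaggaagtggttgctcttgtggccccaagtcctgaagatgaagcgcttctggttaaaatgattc
A table of promoters held this window for 7 members (all except Cst6, Cst11 and Cstb). They were searched on both strands for TATAAA, the core of the TATA box, for GGGCGG, known as the GC box, for the CCAAT motif and for the consensus site of NF-kB, the transcription factor activated through MyD88. The only match in the 7 windows was the GC box of Cst3, which starts 67 bases before the transcription start. Among 32851 mouse promoter windows of the same length, 12.4% held the TATA box, 32.7% the GC box, 33.8% the CCAAT motif and 7.25% the NF-kB consensus. The GC content was 59.6% for Cst3, 48.4% for Cst10 and 51.6% for Cst7.

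Values below are log2 of the background-corrected intensity minus the log2 of the 75th percentile of the array, so that a value of 0 is as bright as that percentile. That percentile ranged from 237 to 321. The share of probes well above background ranged from 52.2% (Myd88-/- array 1) to 74.2% (Myd88+/+ array 1), with more detected probes on Myd88-/- array 2 (68.4%) than on Myd88+/+ array 2 (55.1%). All arrays were on a single slide and in a single scan, and no spot was saturated. The Myd88 probe read 1.51 and 1.41 in Myd88-/- SGs against 1.15 and 1.07 in Myd88+/+ SGs. It was thus not lower on the arrays labelled Myd88-/- (adjusted p = 0.264 from limma) and does not check the labels, which are used as given. Genes of the gland itself were present on every array. Tested were 6 of 6 genes listed for SMG acini (Smgc, Smr3a, Prol1, Bhlha15, Aqp5 and Dcpp1) and 6 of 6 genes of the granular convoluted tubule. So were 3 of 5 SLG genes, without Gal3st1 and Bpil1 (now Bpifb2). The acinar and SLG lists are not cleanly separate, since Dcpp1 is in the first and its relatives Dcpp2 and Dcpp3 are in the second.

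**Figure D1:**
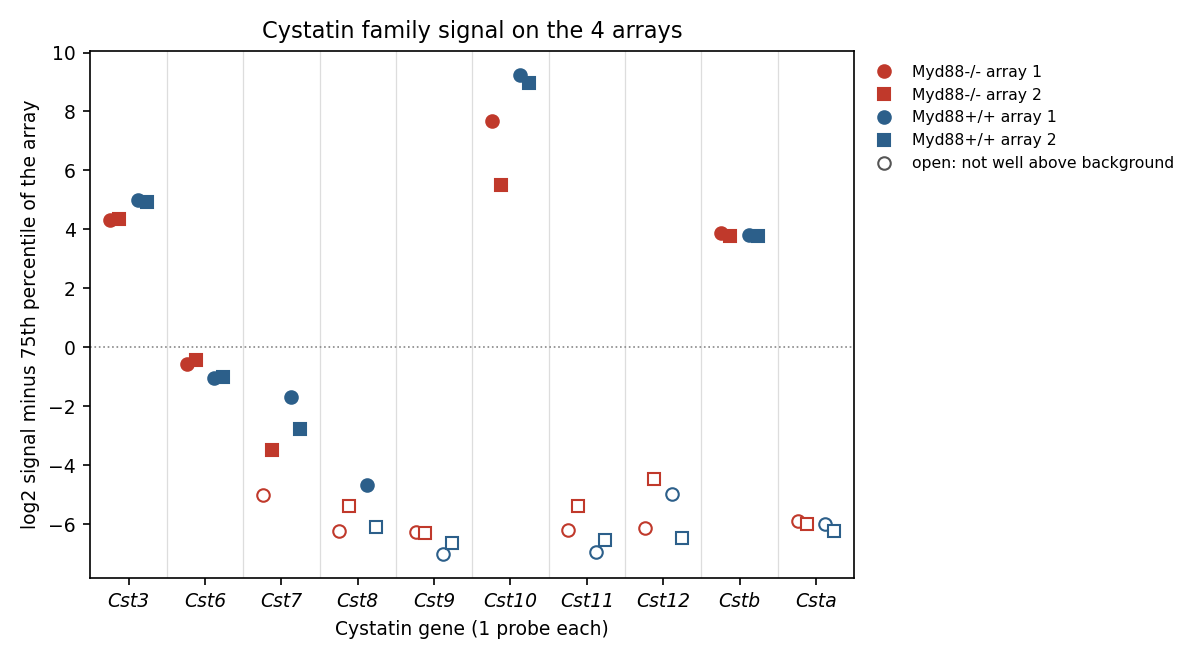
Signal of the 10 cystatin genes on the 4 arrays, as log2 intensity minus the log2 75th percentile of the array (vertical axis), with 1 point per array and open points where the probe was not well above background. The Myd88-/- points of Cst10 lie at 7.67 and 5.49, below both Myd88+/+ points, those of Cstb overlap, and Cst9, Cst11, Cst12 and Csta have open points only.

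Among the secreted members, Cst10 showed the largest difference. Cystatin 10 is a type 2 cystatin that was first described in chondrocytes. In Myd88-/- SGs, its log2 signal was 7.67 on array 1 and 5.49 on array 2, against 9.25 and 8.98 in Myd88+/+ SGs. The corresponding intensities were 52152 and 10676 in Myd88-/- SGs and 195122 and 135718 in Myd88+/+ SGs. Both Myd88-/- arrays were thus below both Myd88+/+ arrays, but they also differed from each other by 2.18. The mean was 6.58 ± 1.54 (SD, n = 2) in Myd88-/- SGs and 9.11 ± 0.19 (SD, n = 2) in Myd88+/+ SGs. The log2 difference was -2.53 (SE 0.81, 95% interval -4.83 to -0.23), which is 5.79-fold lower, with an adjusted p of 0.274 from limma. Only 0.771% of the genes tested had a larger difference in size. The size of this difference depended on the array: the difference was -3.62 without Myd88-/- array 1 and -1.44 without Myd88-/- array 2. With scaling by the median of each array, under which limma used a common spread for all genes, Cst10 passed the threshold (adjusted p = 0.00023), as did 1.8% of all genes.

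The other secretory genes that moved with Cst10 on the same arrays are given with it, since the level of the whole gland depends on which cells it holds. A list of 9 genes known from the parotid gland, a serous gland that the labels do not name among the tissues, was written after the values of Cst10 had been seen. All 9 were well above background on the 4 arrays. The proline-rich protein genes Prb1, Prh1 and Prp2, which are related in sequence and may share signal, were lower than the Myd88+/+ mean by the same order as Cst10. Against that mean, Cst10 stood at -1.44 on Myd88-/- array 1 and -3.62 on array 2, Prb1 at -1.33 and -3.25, Prh1 at -1.42 and -3.40, and Prp2 at -1.35 and -3.31. Dnase1, a secreted nuclease, stood at -0.57 and -2.23, and the salivary amylase gene Amy1 at -0.03 and -1.11. Psp, the parotid secretory protein gene, stood at 0.14 and -0.51, and its groups overlapped, as did those of Amy1. By contrast, Car6, Pip and Lpo of the same list, which encode carbonic anhydrase 6, prolactin-inducible protein and lactoperoxidase, were above the mean on both Myd88-/- arrays (0.32 to 0.53). Of the 9 genes, 6 were lower and 3 higher, with a median of -0.57 where the median of all genes was 0.06, and at an unadjusted p under 0.05, 3 were lower and 2 (Car6 and Pip) higher, beside the 6.83% and 9.82% of all genes. The summed signal of the list, in multiples of the 75th percentile, was 5818 and 4577 in Myd88-/- SGs and 5657 and 5779 in Myd88+/+ SGs. That sum came mostly from the brightest genes, Psp, Car6 and Pip, and shows little of Prb1, Prh1 and Prp2. Of the 6 genes listed for SMG acini, Smr3a, named after its values were seen, was the only lower one. Smr3a stood at -1.04 and -2.67, though its second probe differed by -0.44 where the probe used differed by -1.86. The other 5 genes of the acinar list were higher, from 0.03 (Bhlha15) to 1.57 (Smgc), with a median of 0.23 over the 6. In whole-gland RNA, fewer cells of a type and less RNA per cell cannot be told apart, and the part of serous or parotid cells in the Cst10 difference was not tested.

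**Figure D2:**
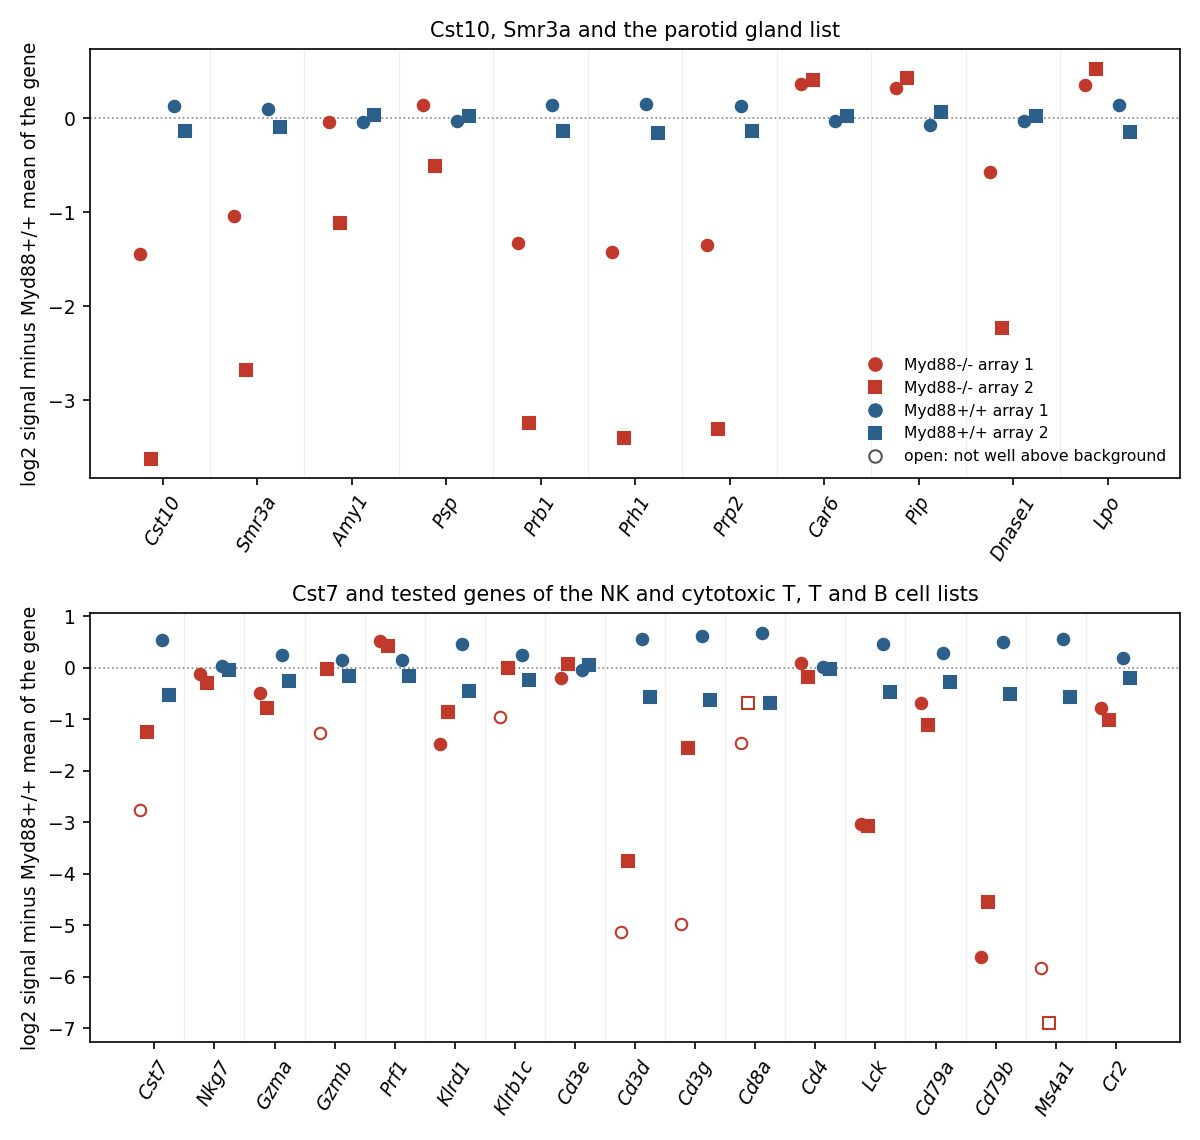
Deviation of each gene from its own Myd88+/+ mean (vertical axis, log2) on the 4 arrays, for Cst10 with Smr3a and the parotid gland list (upper panel) and for Cst7 with the tested genes of the NK and cytotoxic T, T and B cell lists (lower panel). Open points are not well above background. In the upper panel the Myd88-/- array 2 points of Cst10, Prb1, Prh1 and Prp2 lie between -3.62 and -3.25, and in the lower panel Cst7 lies at -2.77 and -1.26 on Myd88-/- arrays.

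Cystatin C, encoded by Cst3, is the widely expressed secreted inhibitor of lysosomal cathepsins. In Myd88-/- SGs the Cst3 signal was 4.33 and 4.36, against 5.004 and 4.91 in Myd88+/+ SGs, from intensities of 5143 and 4880 against 10297 and 8114. The arrays of a genotype lay close together and the groups did not overlap. The mean was 4.34 ± 0.03 (SD, n = 2) in Myd88-/- SGs and 4.96 ± 0.06 (SD, n = 2) in Myd88+/+ SGs, a log2 difference of -0.61 (SE 0.10, 95% interval -0.90 to -0.33) or 1.53-fold lower. The adjusted p was 0.199 from limma. Cst3 was the most reproducible of the lower members, with differences between -0.69 and -0.57 in the 16 other settings tried, but 11.7% of all genes had a larger difference in size. It passed the threshold in 1 of these settings, in which limma estimated the spread along a trend and with robust weights (adjusted p = 0.036), and 2.16% of all genes passed there.

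Macrophages and dendritic cells are rich sources of cystatin C. Of 7 macrophage genes, 4 were lower and 3 higher, with a median of -0.01, and the summed signal was 37.8 and 32.9 in Myd88-/- SGs and 40.9 and 30.5 in Myd88+/+ SGs. The groups therefore overlapped for the macrophage list. Of 5 dendritic cell genes, 4 were tested (Xcr1 was not), and all 4 were lower, with a median of -0.98, but 2 of them (Flt3 and Cd209a) passed the filter through their Myd88+/+ arrays only. Their summed signal was 0.850 and 0.848 against 1.46 and 1.31, so that here the groups did not overlap. The defining gene Itgax (CD11c) differed by -0.39 and Cd209a by -2.03, although a second Cd209a probe differed by -0.28. The Flt3 probe used differed by -1.56, whereas the 2 other Flt3 probes differed by 0.18 and 0.56. The part of these cells in the Cst3 difference was not tested.

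Cystatin F, the product of Cst7, is made by leukocytes, in particular NK cells and cytotoxic T cells, where it reaches lysosomes and restrains cathepsin C. The Cst7 probe was dim, with intensities of 7.98 and 21.1 in Myd88-/- SGs against 98.8 and 39.5 in Myd88+/+ SGs. Relative to the array, these were log2 values of -5.005 and -3.49 against -1.70 and -2.77. The lowest value, on Myd88-/- array 1, was not well above background, so that Cst7 was tested through both Myd88+/+ arrays. The groups did not overlap, but the arrays within each genotype were over 1 log2 unit apart. The mean was -4.25 ± 1.07 (SD, n = 2) in Myd88-/- SGs and -2.23 ± 0.76 (SD, n = 2) in Myd88+/+ SGs. The log2 difference was -2.01 (SE 0.68, 95% interval -3.96 to -0.06), which is 4.04-fold lower, and the adjusted p was 0.291 from limma. Of all genes tested, 1.40% had a larger difference in size.

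The Cst7 difference depended on how background was treated. With normexp correction it was only -0.43, from values of -2.11 and -1.83 in Myd88-/- SGs and -1.32 and -1.76 in Myd88+/+ SGs. No member passed the adjusted threshold with that correction, under which 0.354% of all genes did. It was -1.26 without Myd88-/- array 1 and -2.77 without Myd88-/- array 2. With scaling by the median of each array it passed the threshold, with an adjusted p of 0.0098. Without a filter on dim probes its adjusted p was 0.539, and a filter that asked for detection on all 4 arrays removed it.

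Genes of cytotoxic lymphocytes were examined beside Cst7. Of 7 genes of NK and cytotoxic T cells, 6 were tested (Ncr1 was not), of which 5 were lower and Prf1 (perforin) was higher, with a median of -0.56. Their summed signal was 5.97 and 5.51 in Myd88-/- SGs and 7.04 and 6.03 in Myd88+/+ SGs. Those sums did not overlap. At an unadjusted p under 0.05, no gene of the list was lower and Prf1 was higher (0.47), beside the 6.83% and 9.82% of all genes. Of the 6, 2 passed the filter through their Myd88+/+ arrays only. The 6 tested T cell genes were all lower (median -2.07), but Cd3e and Cd4 differed by only -0.06 and -0.04. The 3 genes Cd3d, Cd3g and Cd8a passed the filter through their Myd88+/+ arrays only. Lck, well above background on all 4 arrays, differed by -3.06, and Tcra was not tested. The summed signal of the T cell list was 11.8 and 11.3 against 18.7 and 14.9. The 4 tested B cell genes were also all lower (median -2.99), and Pax5 was not tested. Ms4a1 (CD20) was not well above background on Myd88-/- arrays and so was tested through its Myd88+/+ arrays. The summed signal of the B cell list was 2.12 and 1.81 against 13.6 and 7.46. By flow cytometry the study instead reported more B cells and IgA+ plasma cells in Myd88-/- SMGs. That was an unlike measure, made in male mice and in SMGs without SLGs. The medians of the T and B cell lists were thus farther from 0 than that of the cytotoxic list, a difference that was not tested. Of 6 tested neutrophil genes, 5 were lower (median -0.95), 2 of the 6 having passed through their Myd88+/+ arrays only. Gene by gene the groups did not overlap, 5 lower and 1 higher, beside 18.7% and 33.2% of all genes tested. The summed signals overlapped, with 4.52 and 3.87 against 4.95 and 4.24, but were weighted to Elane, the brightest and the only higher one. The part of lymphocytes in the Cst7 difference was not tested.

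Cystatin E/M, encoded by Cst6, is an epithelial inhibitor of legumain and cathepsin L that is best known from the skin. Among the tested members whose arrays did not overlap, it was the only one with a higher signal in Myd88-/- SGs. Its values were -0.56 and -0.42 in Myd88-/- SGs against -1.03 and -1.01 in Myd88+/+ SGs, from intensities of 174 and 177 against 158 and 134. The groups did not overlap before or after scaling. The mean was -0.49 ± 0.09 (SD, n = 2) in Myd88-/- SGs and -1.02 ± 0.01 (SD, n = 2) in Myd88+/+ SGs, and the log2 difference was 0.53 (SE 0.11, 95% interval 0.22 to 0.83), or 1.44-fold higher. With an adjusted p of 0.205 from limma it did not pass, and it passed in none of the 16 other settings, where the difference ranged from 0.41 to 0.60. A larger difference in size was found for 14.9% of all genes.

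Epithelial markers gave no common direction beside Cst6. Of 4 duct keratin genes, Krt7 was higher (0.37) and Krt19, Krt5 and Krt14 were lower, with a median of -0.17 and overlapping sums of 21.0 and 19.4 against 17.4 and 20.7. Of 6 genes of stratified epithelium, Krt13 was the only one tested and differed by 0.49, whereas Krt4, Sprr1a, Sprr3, Lor and Ivl were not tested. Their part in the Cst6 difference was not tested.

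Stefin B, the product of Cstb, is the widely expressed cytosolic inhibitor. Its signal was 3.87 and 3.79 in Myd88-/- SGs against 3.80 and 3.79 in Myd88+/+ SGs, from intensities of 3736 and 3284 against 4482 and 3719. The groups overlapped, and the mean was 3.83 ± 0.05 (SD, n = 2) in Myd88-/- SGs and 3.80 ± 0.01 (SD, n = 2) in Myd88+/+ SGs. The log2 difference was 0.03 (SE 0.10, 95% interval -0.25 to 0.31; adjusted p = 0.898 from limma). Its sign turned in 5 of the 16 other settings, and 90.8% of all genes had a larger difference in size.

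The other stefin, stefin A (Csta), and the cystatins of the male reproductive tract were near or under background. Cst8 (CRES), which belongs to the epididymis and testis, was well above background on Myd88+/+ array 1 only (-4.67), with -6.11 on Myd88+/+ array 2 and -6.25 and -5.39 on Myd88-/- arrays. Cst9 (testatin) read -6.26 and -6.32 in Myd88-/- SGs and -7.01 and -6.62 in Myd88+/+ SGs. Cst11 read -6.18 and -5.38 against -6.94 and -6.54. Neither was well above background on any array, so that their lack of overlap is between background values. Cst12 ranged from -6.46 to -4.46 and Csta from -6.25 to -5.88 over the 4 arrays, also below that limit throughout. No fold is given for these 5 members. With no filter on dim probes all 10 members were tested, and again 0 passed.

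**Figure D3:**
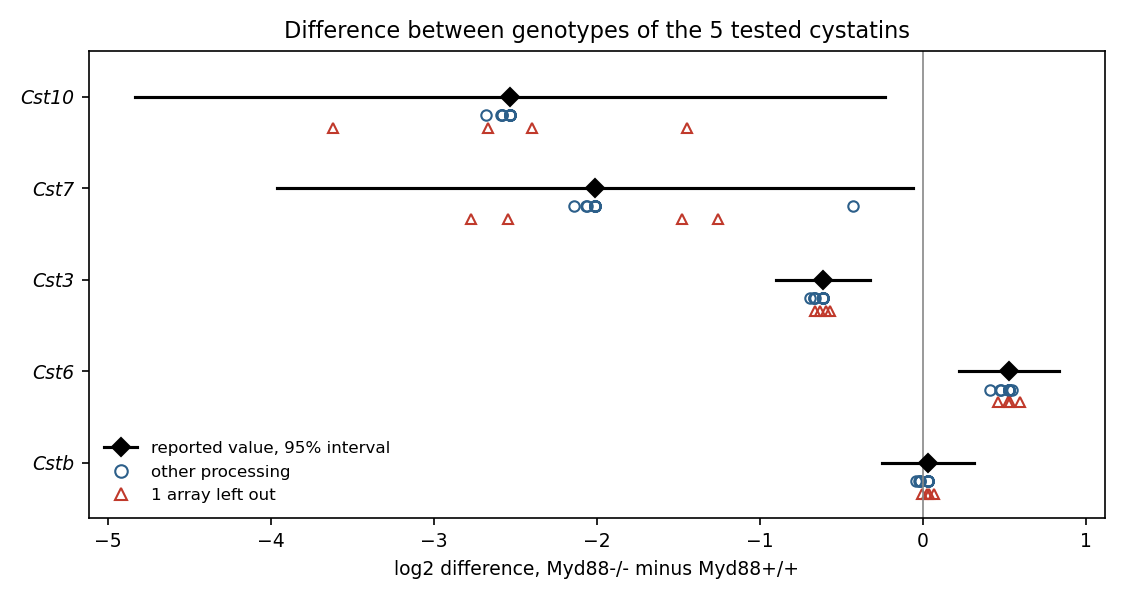
Log2 difference between Myd88-/- and Myd88+/+ SGs (horizontal axis) of the 5 tested cystatins. Diamonds with bars are the reported values with 95% intervals, circles the other ways of processing and triangles the values with 1 array left out. Cst3 (-0.69 to -0.57) and Cst6 (0.41 to 0.60) stay in narrow ranges, Cst10 ranges from -3.62 to -1.44 and Cst7 from -2.77 to -0.43, and Cstb lies around 0.

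Read as a family, the tested members did not share a direction. The 4 members whose arrays did not overlap were 3 lower and 1 higher, where 18.7% of all genes tested were lower and 33.2% higher without overlap (52% in all). The median difference of the 5 was -0.61 beside 0.06 for all genes, and it describes a list that Cst7 entered only through its Myd88+/+ arrays. The arrays also differed in how many probes they detected, so the genotypes were set side by side within pairs of like detection, Myd88-/- array 1 with Myd88+/+ array 2 and Myd88-/- array 2 with Myd88+/+ array 1. The differences in the first and second pair were -0.59 and -0.64 for Cst3, 0.46 and 0.60 for Cst6, -2.24 and -1.79 for Cst7, and -1.31 and -3.76 for Cst10. For Cstb they were 0.08 and -0.01. The sign is fixed for the 4 members whose groups did not overlap, so the pairs show sizes only.

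The location of the lower members was also examined, because Cst3, Cst7 and Cst10 share the stretch of chromosome 2 described above. Of 17 other genes tested between the outermost cystatin probes there, 5 were lower and 12 higher, with a median of 0.11. None of the 17 had an unadjusted p under 0.05 in limma's test, and 0 passed after adjustment, beside 16.7% and 0% of all genes tested. Over all genes tested, 9017 were lower and 13295 higher, with a median of 0.06.

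The peptidases that cystatins block were then examined. All 11 genes listed, 10 cysteine cathepsins and legumain, were well above background on the 4 arrays. Of these, 9 were lower and 2 higher in Myd88-/- SGs, with a median difference of -0.23, and none passed the adjusted threshold (smallest adjusted p = 0.210, for Ctsk). At an unadjusted p under 0.05, 4 were lower and 0 higher, beside the 6.83% and 9.82% of all genes. This count is unstable, since it was 1 or 2 with any array left out and 0 with scaling by the median.

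Ctsw, the cathepsin of cytotoxic lymphocytes, had the largest difference. Its values were -1.61 and -1.49 in Myd88-/- SGs against -0.56 and -0.99 in Myd88+/+ SGs, a log2 difference of -0.78 (SE 0.19). Ctsk, a collagen-degrading cathepsin best known from osteoclasts, read 0.16 and 0.22 against 0.86 and 0.66, a log2 difference of -0.57 (SE 0.12). Ctsc, the target of cystatin F that activates granzymes, read 0.25 and 0.10 against 0.65 and 0.57, a log2 difference of -0.43 (SE 0.12), but its second probe differed by only -0.07. Ctsb, an abundant lysosomal cathepsin, read 5.01 and 4.95 against 5.30 and 5.31, a log2 difference of -0.32 (SE 0.10). These were the 4 genes below the unadjusted limit, and in each the groups did not overlap, which also held for 52% of all genes tested.

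The remaining peptidases differed less. Ctsl and Ctsf were higher in Myd88-/- SGs without overlap, by 0.21 (SE 0.13) and 0.25 (SE 0.14). Ctso, Ctsh and Ctsz were lower without overlap, by -0.23, -0.15 and -0.08. Of the 11 genes listed, 7 were lower and 2 higher without overlap, beside 18.7% and 33.2% of all genes tested. Ctss, the cathepsin of antigen-presenting cells, differed by -0.29 with overlapping arrays. Legumain (Lgmn), which cystatins C, E/M and F also block, read 3.26 and 3.33 against 3.41 and 3.24 and overlapped, with a log2 difference of -0.03 (SE 0.12).

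**Figure D4:**
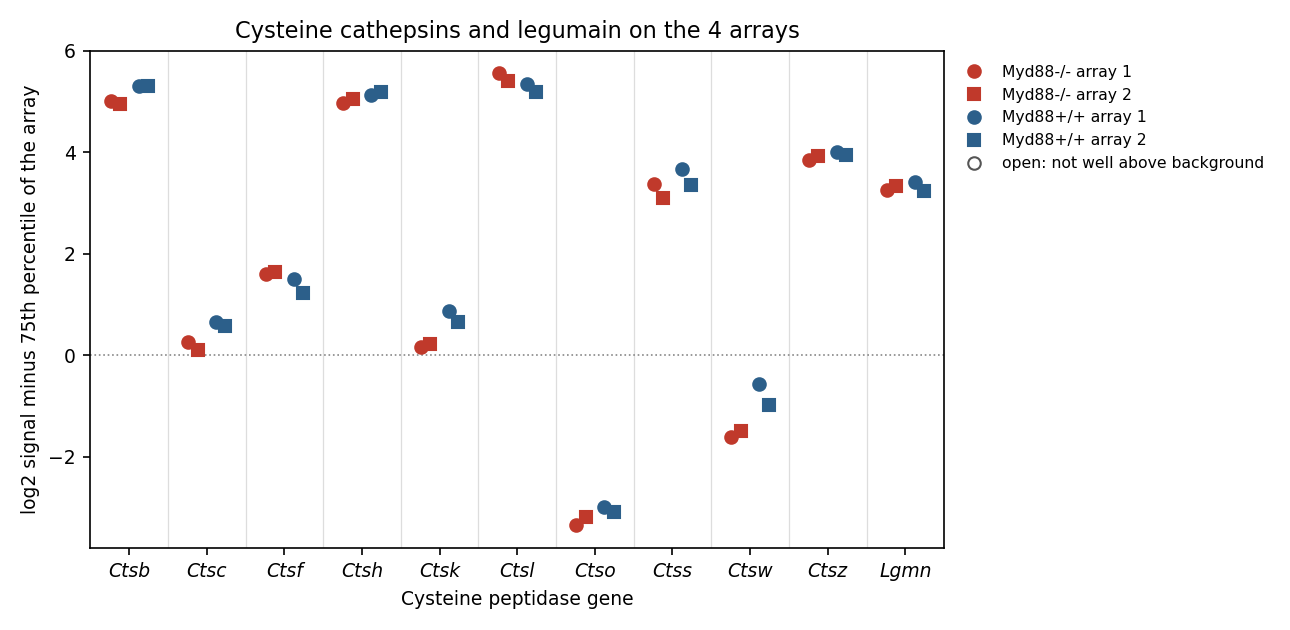
Signal of 10 cysteine cathepsin genes and legumain (Lgmn) on the 4 arrays, as log2 intensity minus the log2 75th percentile of the array (vertical axis), with 1 point per array. The Myd88-/- points of Ctsw (-1.61 and -1.49) and Ctsk (0.16 and 0.22) lie below their Myd88+/+ points, and those of Lgmn overlap.

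Outside the 10 members, 13 further genes of the cystatin superfamily or with a related domain were on the array, and 7 were tested. Kininogens, the precursors of kinins, contain cystatin domains and are made mainly in the liver. Kng1 read -1.45 and -0.94 in Myd88-/- SGs against 0.54 and 0.65 in Myd88+/+ SGs, a log2 difference of -1.79 (SE 0.21, adjusted p = 0.194 from limma). This probe detects transcript variant 2, and the probe for variant 1 was below background on all arrays. Kng2 differed by -1.67 (SE 0.45) and Hrg, a histidine-rich plasma glycoprotein, by -0.61 (SE 0.19). Kng2 passed the filter through its Myd88+/+ arrays only, where it was brighter than on Myd88-/- arrays. Kng1, Kng2 and Hrg were the 3 of 7 that were lower at an unadjusted p under 0.05, and 0 were higher, beside the 6.83% and 9.82% of all genes. Camp, the neutrophil cathelicidin, differed by -0.46, the fetuin gene Fetub by 0.47, Stfa2, a stefin A-like gene, by 0.45 and the transcript TC1722392 by 0.39, none below that limit. Stfa1, Stfa2l1, Stfa3, Cst13, Cstl1 and Spp2 were not tested because their signal was too dim.

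Genes of tissue around the gland also differed between the arrays. All 6 skeletal muscle genes were lower in Myd88-/- SGs, 2 of them having passed the filter through Myd88+/+ arrays only, with a median of -4.57 and summed signals of 2.40 and 2.24 against 19.3 and 109. The 4 tested adipocyte genes were lower too, with a median of -0.80 and summed signals of 112 and 182 against 247 and 260. Granular tubule genes were 3 lower and 3 higher, with a median of -0.05 and overlapping sums. Of the 3 tested SLG genes, Dcpp2 and Dcpp3 were higher (0.34 and 0.32), as was their relative Dcpp1 of the acinar list (0.30). Muc19 was lower by -0.13 with overlapping arrays, and its second probe differed by -0.31. The median of the SLG list was 0.32, with sums of 3407 and 3477 against 2739 and 2943. Whether such differences in tissue content bear on the cystatin values was not tested.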

How the data were processed

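SG RNA was hybridized to 1-colour Agilent arrays of the whole mouse genome, 2 per genotype label. The authors deposited scanner output (Feature Extraction 10.7.3.1). The deposited processed signal is an intensity from which the software had removed background, with surrogate values for dim spots and without any normalization across arrays. The raw mean intensity and local background were used for normexp only. A processed table of the series was left out, since the names of its 4 value columns match no single sample. Cystatin genes and positions (mm9) were taken from the scanner output.

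The log2 signal of 59305 non-control spots was taken minus each array's 75th percentile, without outlier-flagged spots (99 to 131 per array). Of 55681 probes, those detected (over 0.5 of the spots well above background) on each array of a genotype were tested, and each gene was read from its brightest tested probe. Groups were compared over 22312 genes in limma 3.58.1 (R 4.3.3; lmFit, eBayes), and p-values were adjusted by Benjamini-Hochberg (threshold 0.05). Log2 differences are Myd88-/- minus Myd88+/+. The procedure was also run on simulated arrays, and no result here rests on that run. It took every probe as detected and shuffled the spread over genes, so it did not cover the filter on dim probes. The number of arrays limits the precision, and an exact two-sided permutation test of 2 against 2 cannot give a p below 0.333.

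The genes named are all members, all listed cathepsins, the tested cystatin-domain genes, Myd88 and defining genes of the marker lists. The members, lists and tests were chosen with earlier results of these data known, and the parotid list was written last. A further gene of the B cell list is not reported here. In addition, 15 other settings were tried: normexp (offset 50), quantile normalization, scaling by the median or by detected probes, no filter or a stricter filter, the mean of probes, the methods' t-test, outlier spots kept, moderation with trend and robust weights, the replicate number as a block and each array left out. A block of crossed numbers was added after seeing the data. The replicate numbers paired no samples by label.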

Additional observations from a re-analysis of the deposited data

How the results depend on the processing

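The count of genes past the adjusted threshold was 0 as reported, with 3715 at an unadjusted p under 0.05. It was 79 with normexp, 482 with trended and robust moderation, 402 with scaling by the median (for which limma's prior degrees of freedom were infinite) and 1 with the methods' t-test. The count of members past it was 0, against 1 with trended and robust moderation (Cst3) and 2 with scaling by the median (Cst7 and Cst10). The 4 members with an unadjusted p under 0.05 became 2 with scaling by the median, with no filter on dim probes and with the methods' t-test, and 2 to 4 with an array left out. The lower limit was reached without Myd88+/+ array 1 or 2. The members' median was -0.43 with normexp, -0.69 with quantile normalization and -0.29 with the stricter filter, which removes Cst7, and -0.66 to -0.57 with an array left out. The count of cathepsins with an unadjusted p under 0.05 was 4, against 0 with scaling by the median and 1 to 2 with an array left out. That of other cystatin-domain genes was 3, against 1 with the methods' t-test and 1 to 3 with an array left out, the lowest without Myd88+/+ array 1.

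Values near 0 changed sign. Cstb was -0.026 with normexp, -0.039 with quantile normalization, -0.015 with the percentile over detected probes, -0.020 with scaling by the median and -0.0047 to 0.069 with an array left out, negative only without Myd88-/- array 1. Lgmn was -0.12 to 0.053 with an array left out, with 0.0018 without Myd88-/- array 1 and 0.053 without Myd88+/+ array 1. The cause of these changes was not tested. Cst3, Cst6, Cst7 and Cst10 kept their direction in every setting that gave a value. Their groups did not overlap, so leaving out an array could not turn the sign. Nor could a change of filter, probe averaging, outlier spots, moderation, test or block. Only normexp, quantile normalization and scaling by the median or by detected probes could have turned it, and they did not. The median of all genes lay between 0.01 and 0.12 over the settings.

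With the replicate number as a block, the log2 differences of the members were as reported, 0 genes passed and 3 members had an unadjusted p under 0.05. The deviations of same-numbered arrays correlated at -0.37 over genes, and a block of crossed numbers, an alternative added after seeing the data, also gave 0 genes, with 4 members under the unadjusted limit.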
